A study of Mus musculus with 282 samples.

Results

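The genes described here are transcription factors that give hypothalamic neurons their identity. They were chosen by name from a list of 8, Nkx2-1, Nr5a1, Sim1, Otp, Rax, Six3, Isl1 and Fezf1, and 6 of the 8 matched a gene name in the deposited assembly, out of 14079 gene loci with expression values. Sim1 and Rax were not analysed here. The 6 genes comprised 14 transcripts, 14 transcription start sites and 5 coding sequences with values, Nr5a1 having no coding-sequence value. The data are poly(A) RNA-Seq of the whole hypothalamus of male mice, all fed a high fat diet, from the Hybrid Mouse Diversity Panel (HMDP), which combines classical inbred strains with sets of recombinant inbred strains. There was no other diet and no second sex, so every comparison is between strains on 1 diet, and the labels give no age. Of 282 libraries, 281 entered the analysis, because 2 libraries of CXB-6/ByJ were nearly equal (SD of the log2 ratio between them 2.9e-06 over expressed gene loci, against 0.24 for the next closest pair of libraries) and were averaged and counted as 1. Strain was known for 280 of these, which came from 43 BXD, 18 AXB/BXA, 7 CXB, 6 BXH and 25 classical inbred strains, with 3 mice in 84 strains, 2 in 13 and 1 in 2. The recombinant sets descend from C57BL/6 crossed with DBA/2 (BXD), A (AXB and BXA), BALB/c (CXB) or C3H (BXH). The sample titles give AXB-18/PgnJ, AXB-19/PgnJ and AXB-20/PgnJ variants of the same strain name, and they were counted here as separate strains.

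The hypothalamus is patterned in the embryo by homeodomain, zinc finger and nuclear receptor proteins, several of which stay on in adult neurons and mark single nuclei. Nkx2-1 is a homeodomain factor required for the ventral hypothalamus as a whole. Otp is a homeodomain factor needed for the neuroendocrine neurons of the paraventricular and supraoptic nuclei that make vasopressin, corticotropin releasing hormone and somatostatin. Nr5a1, or steroidogenic factor 1, is a nuclear receptor that within the hypothalamus marks the ventromedial nucleus and is also made in pituitary gonadotropes. Fezf1 is a zinc finger repressor of the ventromedial nucleus. Isl1 is a LIM homeodomain factor of arcuate neurons, among them those that make proopiomelanocortin. Six3 is a homeodomain factor of the anterior forebrain and eye. Values are FPKM, fragments scaled to transcript length and library size, at the level of the whole gene locus unless the coding sequence or a transcript is named. In a bulk sample, fewer cells of a type and less RNA per cell cannot be told apart.

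The genes lie at separate loci (mm10). Nkx2-1 spans chr12:56531958-56536908 on the minus strand, Nr5a1 chr2:38692631-38711784 on the minus strand, Otp chr13:94875434-94885130 on the plus strand, Isl1 chr13:116298180-116309688 on the minus strand, Fezf1 chr6:23245047-23248264 on the minus strand and Six3 chr17:85613608-85625224 on the plus strand. Libraries were unstranded, so reads of an overlapping antisense gene cannot be told from those of the factor. By GENCODE M21, Nkx2-1 overlaps 1 antisense gene, Gm26973. Six3 overlaps 2 genes on the opposite strand, Six3os1 and Gm28528, and 5 short noncoding RNA genes of 74 to 323 bases on its own strand. The other 4 genes overlap no annotated gene in that release.

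Nkx2-1, Otp and Fezf1 had the highest correlations with each other over strains, as described later. The 250 bases before the RefSeq start of each (GRCm38.p6, the assembly of mm10, read 5′ to 3′ on the strand of the gene) are shown for that reason, having been chosen after the correlations were seen. Capitals mark the CCAAT box, CCAAT or its reverse complement ATTGG, the only motif searched that occurred in these 3 windows.
Nkx2-1, chr12:56536909-56537158, minus strand: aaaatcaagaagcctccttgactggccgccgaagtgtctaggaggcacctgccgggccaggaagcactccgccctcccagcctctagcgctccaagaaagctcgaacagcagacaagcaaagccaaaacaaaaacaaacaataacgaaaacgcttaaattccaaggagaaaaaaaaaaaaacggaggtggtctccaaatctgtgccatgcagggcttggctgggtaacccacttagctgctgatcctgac
Otp, chr13:94875386-94875635, plus strand: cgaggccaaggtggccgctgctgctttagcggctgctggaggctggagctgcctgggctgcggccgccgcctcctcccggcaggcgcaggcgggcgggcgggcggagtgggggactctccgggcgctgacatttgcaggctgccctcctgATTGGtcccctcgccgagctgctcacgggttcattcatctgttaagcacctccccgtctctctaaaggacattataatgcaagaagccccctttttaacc
Fezf1, chr6:23248265-23248514, minus strand: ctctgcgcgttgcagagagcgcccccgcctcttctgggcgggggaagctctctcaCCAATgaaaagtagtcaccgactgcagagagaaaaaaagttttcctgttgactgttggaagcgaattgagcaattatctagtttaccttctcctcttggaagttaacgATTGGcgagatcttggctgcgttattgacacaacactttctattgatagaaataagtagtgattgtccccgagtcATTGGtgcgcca

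The start used for Nkx2-1 and for Fezf1 is that of an assembled transcript in these data, and the one for Otp lies 34 bases from the nearest assembled start. GC content was 50.8% in the Nkx2-1 window, 65.2% in that of Otp and 47.6% in that of Fezf1, against a median of 52.4% over 32851 mouse promoter entries. The 3 windows shared no searched motif, since the Nkx2-1 window held no CCAAT box, that of Otp held 1 and that of Fezf1 held 3. A CCAAT box occurred in 33.8% of all entries. The windows of Six3 and Isl1 held 3 and 2 CCAAT boxes. TATAAA (12.4% of entries), the homeodomain core TAATTA (4.84%), the NKX2-type motif CAAGTG (11.6%) and the Nr5a1-type motif AAGGTCA (4.08%), each sought on both strands, were found in none of the 5 windows. Nr5a1 had no matching entry.

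All 6 factors were detected at the gene level in every mouse. Six3 and Otp were the most abundant, with median strain means of 11.5 and 11.1 FPKM. They were followed by Isl1 at 7.94, Nkx2-1 at 5.96, Fezf1 at 4.84 and Nr5a1 at 2.27 FPKM. Otp exceeded Isl1 in 99 of 99 strains, with a mean difference of 3.45 FPKM (SD 1.59 over strains). Isl1 exceeded Nkx2-1 in 95 strains, Nkx2-1 exceeded Fezf1 in 94 and Fezf1 exceeded Nr5a1 in 99. Six3 exceeded Otp in only 48 of 99 strains, so these neighbours in the order were not separated beyond their spread. At the level of the coding sequence Six3 exceeded Otp in 99 of 99 strains, by 3.98 FPKM (SD 1.54), and Nkx2-1 exceeded Isl1 in 92, so the order depended on the level read. FPKM is scaled to length, but the share of a locus assigned to listed transcripts differed between the genes. By the study's methods, a gene value sums the transcripts of its locus. Transcripts expressed in too few samples were filtered out by the authors and are not listed. In the median mouse the listed transcripts summed to 82.9% of the gene-level value of Six3, 78.8% of Nkx2-1, 74.4% of Isl1, 64.7% of Otp, 62.4% of Fezf1 and 24.7% of Nr5a1. The single listed Nr5a1 transcript is an unannotated isoform and was at 0 in 19 mice. The gene level was nevertheless at least 0.529 FPKM in every mouse, and the 2 levels of Nr5a1 had a correlation of 0.21 over mice.

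**Figure D1:**
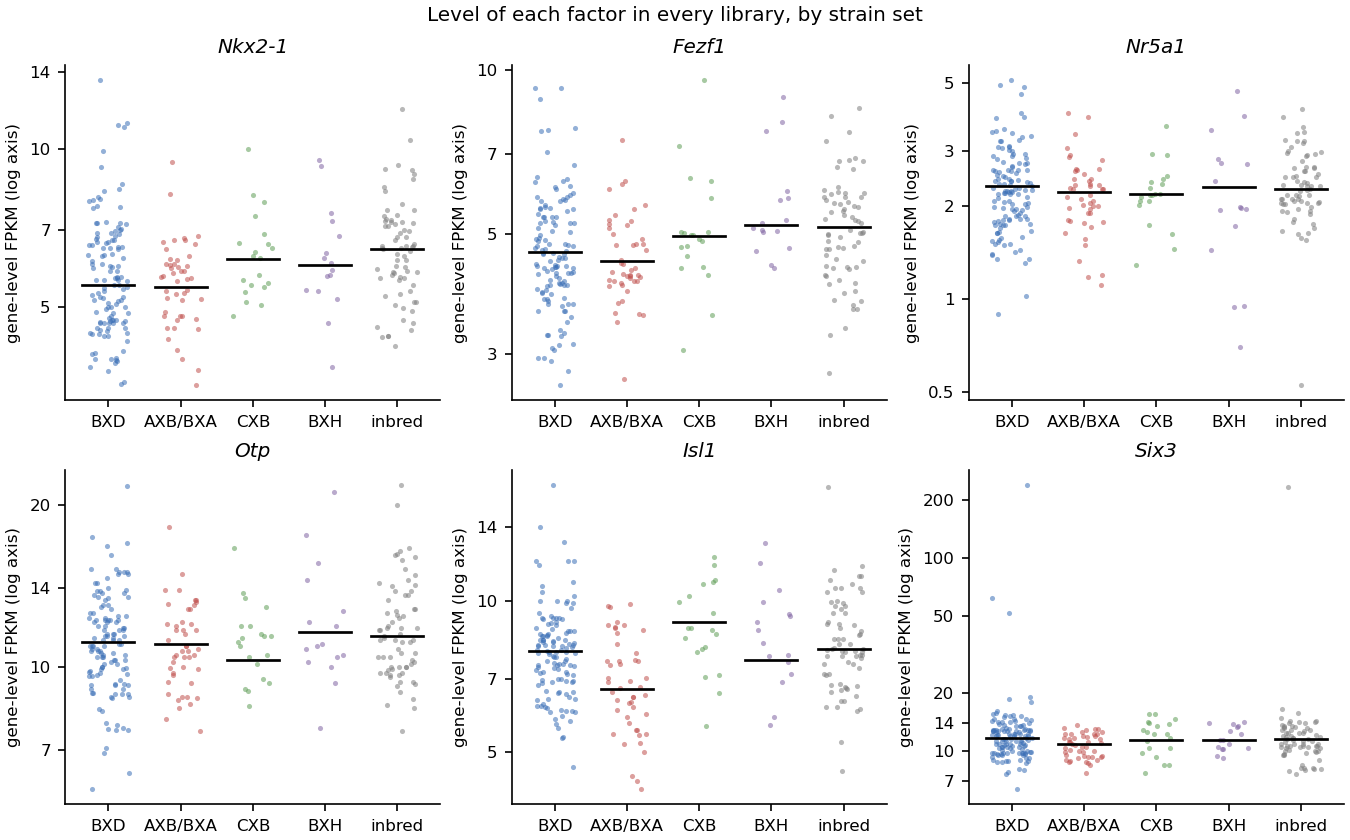
Gene-level FPKM (log axis) of the 6 factors in each library with a known strain, grouped by strain set on the horizontal axis. Points are libraries and bars are the median of the strain means. Isl1 was lowest in the AXB/BXA set (median 6.69 FPKM against 7.64 to 9.07 in the other sets), and 4 Six3 libraries lay far above all others.

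Within a strain the factors varied with a median SD of 1.48 FPKM for Otp, 1.67 for Six3, 1.04 for Isl1, 0.983 for Nkx2-1, 0.743 for Fezf1 and 0.444 for Nr5a1. Over all mice, gene-level Nkx2-1 ran from 3.55 to 13.5 FPKM with a median of 5.86. Otp ran from 5.92 to 21.8 with a median of 11.1, and Isl1 from 4.23 to 17 with a median of 7.9. The highest strain mean was 2.98 times the lowest for Nkx2-1, 2.29 times for Otp and 2.77 times for Isl1. Fezf1 ran from 2.63 to 9.58 FPKM with a median of 4.74, and Nr5a1 from 0.529 to 5.08 with a median of 2.23. Six3 ran from 6.35 to 240 FPKM with a median of 11.4, and its upper end consisted of 4 libraries that are taken up below.

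Strain differences were found at the gene level for 5 of the 6 factors. The share of all gene loci with such a difference was 74.9%, so the count is near the background (limma moderated F test over 99 strains on log2(FPKM + 1), Benjamini-Hochberg adjusted over 14079 gene loci). The part of the variance that lay between strains (intraclass correlation) was 0.38 for Nkx2-1 (adjusted p = 6.8e-09, limma), 0.34 for Isl1 (1.7e-07), 0.32 for Otp (1.2e-06), 0.30 for Fezf1 (4.5e-06) and 0.26 for Nr5a1 (6.8e-05). Six3 had a share of 0.03 and did not pass (adjusted p = 0.28). Its residual SD on the log2 scale was 0.464, against 0.227 to 0.259 for the other factors, and includes 4 very high libraries taken up below. By the Kruskal-Wallis test, which uses ranks, all 6 factors passed, Six3 among them, as did 73% of gene loci. The median share was 0.31 over the 6 factors and 0.22 over all gene loci, and Nkx2-1 exceeded 76.7% of loci. Mice are separate animals, so these p-values measure the spread between mice of a strain, and each strain is represented by at most 3. With the second replicate number left out of every strain, only Nkx2-1 passed (adjusted p = 0.016), Fezf1 had an adjusted p of 0.052, Otp 0.072, Isl1 0.095 and Nr5a1 0.17, while the background also dropped, to 45.6%.

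At finer levels fewer differences were found. Of the 14 transcripts, 5 differed between strains, against 45.9% of 51024 transcripts. They were both transcripts of Nkx2-1 (adjusted p = 0.011 and 0.0093), the single transcript of Fezf1 (0.019), the 2-exon transcript of Six3 that matches ENSMUST00000175898.2 (0.00065) and 1 of 4 transcripts of Otp (0.016), which is an unannotated isoform at 0 in 92 mice. None of the 4 Isl1 transcripts and not the Nr5a1 transcript passed. Start sites gave 4 of 14, against 49.6% of all start sites. Coding sequences gave 3 of 5, against 52% of 18687, with strain shares of 0.31 for Nkx2-1, 0.17 for Six3, 0.15 for Fezf1, 0.10 for Otp and -0.01 for Isl1. The calls at the gene and coding-sequence levels thus disagreed for 3 factors. Of these 2 levels, Isl1 and Otp passed in the gene-level value only, and Six3 in the coding sequence only. The finer levels are not separate measurements, since the coding sequence of Fezf1, Otp and Isl1 is 1 transcript each, and several start sites repeat a transcript. For Otp and Isl1 that transcript averaged 5.32 and 3.22 FPKM, against 11.5 and 8.05 at the gene level. The residual SD of these 2 coding sequences was 0.466 and 0.365 on the log2 scale, against 0.227 and 0.231 at the gene level.

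Between the founders of the recombinant sets and C57BL/6J, 1 of 24 contrasts passed, Isl1 in A/J. The 3 A/J mice had 4.6, 6.14 and 6.77 FPKM of Isl1 and the 3 C57BL/6J mice 9.97, 7.99 and 11.2, so the groups did not overlap. The log2 difference was -0.65 (SE 0.19, adjusted p = 0.013, limma), where 7.98% of gene loci differed between these 2 strains. The call was not kept without the first (adjusted p = 0.24) or the third (0.075) replicate number, and at the coding-sequence level the difference was -0.15 (adjusted p = 0.9). No factor passed in DBA/2J, BALB/cJ or C3H/HeJ, in which 6.85%, 6.75% and 7.56% of gene loci did. The largest of these was Otp in C3H/HeJ, lower by a log2 difference of -0.51 (SE 0.18, adjusted p = 0.071). With the fit restricted to the 5 founder strains, 4 contrasts passed, where 7.21% of all such contrasts of gene loci did. The added ones were Six3 in A/J (-0.49, SE 0.12, adjusted p = 0.025, limma), Six3 in C3H/HeJ (-0.44, adjusted p = 0.04) and Otp in C3H/HeJ (adjusted p = 0.046). In the fit over all strains the same Six3 contrasts had an SE of 0.38.

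Isl1 was also low in the set that descends from A/J. Its strain means in AXB/BXA ran from 4.54 FPKM in AXB-20/PgnJ to 8.72 in AXB-5/PgnJ, with a mean of 6.86 (SD 1.11, n = 18 strains). In BXD the mean was 8.07 (SD 1.22, n = 43), in CXB 9.01 (SD 1.25, n = 7), in BXH 8.53 (SD 1.74, n = 6) and in the classical inbred strains 8.34 (SD 1.39, n = 25). The sets overlapped, and the difference between sets was not tested.

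Fitted within each strain set, 14 of 30 tests passed. In BXD these were Nkx2-1 with a strain share of 0.42, Otp with 0.30, Fezf1 with 0.25 and Isl1 with 0.19, against a background of 41.4% of gene loci. In AXB/BXA they were Nr5a1 (0.53), Otp and Isl1 (0.36 each), against 33.5%. In BXH they were Fezf1 (0.82), Nr5a1 (0.77), Nkx2-1 (0.72) and Otp (0.68), against 18.3%, in a set of only 6 strains. In the inbred strains Isl1 (0.32), Nkx2-1 (0.26) and Otp (0.22) passed, against 61.9%. In CXB 0 of 6 passed and 3.08% of gene loci did (limma). The lowest adjusted p there was 0.31, for Six3, the 1 factor with an unadjusted p under 0.05. Otp thus differed between strains within 4 of the 5 sets, Nkx2-1 and Isl1 within 3, Nr5a1 and Fezf1 within 2 and Six3 within none. The count was 7 without the first replicate number, 1 without the second and 5 without the third. The share of gene loci that passed within sets was not computed for these repeats. In the fit over all strains the share of gene loci fell as well, from 74.9% to 54.9%, 45.6% and 61.4%.

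Compared with the mean of the 99 strains, 30 of 594 factor-by-strain values stood apart, or 5.05%, against 6.72% of all values of gene loci. Of the 30, 24 were higher and 6 lower, where the background was 3.4% higher and 3.32% lower. The higher values were concentrated in few strains. BXHB2 was higher in 5 of the 6 factors, all but Six3, where 5.43% of gene loci were higher in that strain. BXD-19/TyJ was higher in 4 (9.03%), BXD-24/TyJ in 3 (6.38%), RIIIS/J in 3 (4.11%), CXB-12/HiAJ in 2 (3.65%) and C57L/J in 2 (3.31%). When each replicate number was left out in turn, 5 of the 30 kept an adjusted p under 0.05 every time, and 11 shrank by over 1.5 times at least once. The same shares over all gene loci were not computed.

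**Figure D2:**
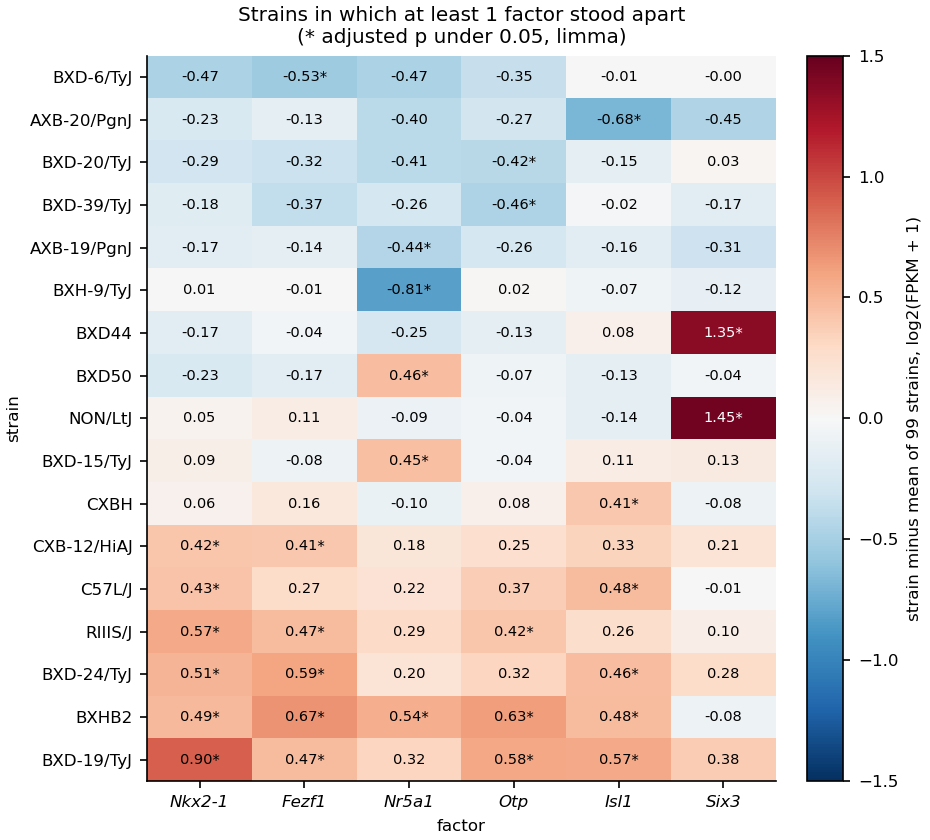
Difference between a strain and the mean of 99 strains on the log2(FPKM + 1) scale, for the 17 strains (vertical axis) in which at least 1 of the 6 factors (horizontal axis) stood apart. Stars mark adjusted p under 0.05 (limma), and in BXHB2 all factors except Six3 carry one.

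The 5 values that held each time belonged to 4 factors. Nkx2-1 was highest in BXD-19/TyJ, with 11.1, 11.2 and 13.5 FPKM, a log2 difference of 0.90 (SE 0.13, adjusted p = 1.6e-08, limma). Only 1 of 277 other mice exceeded the lowest of these 3. The coding-sequence difference was 0.99 (adjusted p = 9e-06). Nkx2-1 was also higher in RIIIS/J, with 10.4, 8.32 and 9.11 FPKM (0.57, SE 0.13, adjusted p = 0.00084, limma), and 18 of 277 other mice lay above the lowest of them. Fezf1 was highest in BXHB2, with 8.02, 7.73 and 8.93 FPKM and a log2 difference of 0.67 (SE 0.13, adjusted p = 6e-05, limma), and 8 other mice lay above the lowest of the 3. Its coding-sequence difference was 0.95 and did not pass (adjusted p = 0.068), while that of Nkx2-1 in RIIIS/J was 0.62 and passed (0.02).

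The other 2 were the lowest strain means of their genes. Nr5a1 in BXH-9/TyJ was 0.702, 0.946 and 0.949 FPKM, a log2 difference of -0.81 (SE 0.15, adjusted p = 1.2e-05, limma), and 2 of 277 other mice lay below the highest of these. The other factors did not stand apart in BXH-9/TyJ, with Nkx2-1, Otp and Fezf1 at 0.01, 0.02 and -0.01. Among the BXH strains the highest Nr5a1, 3.8 FPKM in BXHB2, was therefore 4.39 times the lowest. Isl1 in AXB-20/PgnJ was 4.23, 5.01 and 4.38 FPKM (-0.68, SE 0.13, adjusted p = 6.5e-05, limma), with 3 other mice below the highest of these. In the strains with like titles it did not stand apart. Its mean was 5.98 FPKM in AXB-18/PgnJ (-0.34, adjusted p = 0.11, limma) and 7.03 in AXB-19/PgnJ (-0.16, adjusted p = 0.55). The coding sequence of Isl1 in AXB-20/PgnJ differed by -0.14 (adjusted p = 0.9). Nr5a1 has no coding-sequence value.

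In BXHB2 the other high factors were Otp at 15.6, 21.1 and 17.6 FPKM (log2 difference 0.63, adjusted p = 8.4e-05, limma), Nr5a1 at 3.9, 2.83 and 4.68 (0.54, adjusted p = 0.0055), Nkx2-1 at 7.54, 9.27 and 9.54 (0.49, adjusted p = 0.0037) and Isl1 at 9.34, 11.9 and 13 (0.48, adjusted p = 0.0058). Of their coding sequences, Nkx2-1 passed (0.61, adjusted p = 0.02), and Otp (0.50, adjusted p = 0.45) and Isl1 (0.35, adjusted p = 0.54) did not. In BXD-19/TyJ, Otp was 17.4, 13.7 and 21.7 FPKM (0.58, adjusted p = 0.00038), Isl1 8.7, 17 and 12 (0.57, adjusted p = 0.00065) and Fezf1 6.13, 6.1 and 9.27 (0.47, adjusted p = 0.0069). All of these groups overlapped other strains. For Isl1 in BXD-19/TyJ the difference was 0.34 (adjusted p = 0.23) without the second library, and for Fezf1 0.30 (adjusted p = 0.29) without the third. In BXD-24/TyJ, Fezf1 was 7.82, 9.26 and 6.24 FPKM (0.59, adjusted p = 0.00075), Nkx2-1 9.22, 11 and 6.7 (0.51, adjusted p = 0.0033) and Isl1 13.1, 12 and 8.82 (0.46, adjusted p = 0.0091). The Isl1 call passed only without the third replicate number, and its coding sequence differed in the other direction (-0.20, adjusted p = 0.65). Of the coding sequences, Nkx2-1 passed in BXD-24/TyJ (0.61, adjusted p = 0.011) and Fezf1 did not (0.75, adjusted p = 0.13), and in BXD-19/TyJ Otp (0.64, adjusted p = 0.17), Fezf1 (0.65, adjusted p = 0.25) and Isl1 (0.05, adjusted p = 0.94) did not.

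Several remaining calls rested on 1 library. In C57L/J the third library held 11.9 FPKM of Nkx2-1 and 16.8 of Isl1, against 5.62 and 8.47 of Nkx2-1 and 10.6 and 8.03 of Isl1 in the other two, and without it the differences fell from 0.43 and 0.48 to 0.20 and 0.22. In CXB-12/HiAJ the first library held 9.58 FPKM of Fezf1 against 4.97 and 6.25, and the difference fell from 0.41 to 0.21 without it. In RIIIS/J the first library held 20 FPKM of Otp against 12.3 and 14.8, and the difference fell from 0.42 to 0.25. Otp in BXD-20/TyJ was 8.77, 5.92 and 10.3 FPKM, and its difference of -0.42 became -0.24 without the second library. Values with smaller dependence were Otp in BXD-39/TyJ (-0.46), Nr5a1 in AXB-19/PgnJ (-0.44), Fezf1 in BXD-6/TyJ (-0.53, 2 mice) and Isl1 in CXBH (0.41), none of which passed in more than 1 of the 3 repeats. At the coding-sequence level 7 values stood apart in place of 30, where 3.34% of all coding-sequence values did.

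Markers of cortex and hippocampus and of thalamus were low in the strains where several factors were high. Of the 4 genes of the cortex and hippocampus list, only Slc17a7, the vesicular glutamate transporter of cortical neurons, and Tbr1 were measured. Both were above 0 in every mouse. Slc17a7 averaged 27.9 FPKM and Tbr1 1.78, so their sum leans on Slc17a7. Their summed level was 2.31 to 109 FPKM over mice, with a median of 28.6. BXHB2 had the lowest sum of 99 strains, with 6.74, 2.87 and 6.11 FPKM, and BXD-19/TyJ the second lowest, with 10.6, 7.2 and 2.32. BXD-24/TyJ ranked 3, C57L/J 5, CXB-12/HiAJ 7 and RIIIS/J 12 from the lowest. The third C57L/J library, whose factors were high, had a sum of 2.31 against 24.3 and 15, and the first CXB-12/HiAJ library 2.67 against 23.3 and 22.5. The thalamus list (Prkcd, Tcf7l2, Ramp3, Tnnt1 and Lef1, all above 0 in every mouse) was also lowest in BXHB2 and BXD-19/TyJ, at means of 53.3 and 68.6 FPKM against a median of 214 over strains. Striatum markers went the other way in some of these strains, ranking 96 of 99 in BXD-19/TyJ, 89 in CXB-12/HiAJ, 82 in BXHB2 and 79 in RIIIS/J. In BXD-24/TyJ and C57L/J their sum ranked 50 and 47, near the median of strains. The second BXD-19/TyJ library, with 17 FPKM of Isl1, had a striatum sum of 81 against 32 and 34.4 in the others and a median of 36.8 over strains. The choroid plexus sum was lowest of all strains in BXD-24/TyJ and ranked 8 in BXHB2, but 78 in CXB-12/HiAJ.

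In the strains with low values the marker sums did not all go the same way. In BXH-9/TyJ, low in Nr5a1, the choroid plexus sum was 912, 833 and 203 FPKM (rank 88, against a median of 55.6 over strains), the pituitary sum ranked 8 and the cortex and hippocampus sum 79. The thalamus sum of BXH-9/TyJ was low, at rank 12. In AXB-20/PgnJ, low in Isl1, the striatum sum was the second lowest (29.7 FPKM), and the cortex and hippocampus and thalamus sums ranked 71 and 94. A/J, lower in Isl1 than C57BL/6J, ranked 7 in the striatum sum, 70 in cortex and hippocampus and 72 in thalamus. Its choroid plexus and pituitary sums ranked 41 and 67. The striatum, cortex and hippocampus and thalamus sums were 31.9, 32.7 and 240 FPKM in A/J and 37.8, 25.8 and 188 in C57BL/6J. BXD-39/TyJ and BXD-20/TyJ, low in Otp, ranked 95 and 90 in the cortex and hippocampus sum and 99 and 96 in that of choroid plexus. BXD-6/TyJ, low in Fezf1, ranked 98 and 84, and AXB-19/PgnJ, low in Nr5a1, 63 and 87. The thalamus sum ranked 64 in BXD-39/TyJ, 73 in BXD-20/TyJ, 44 in BXD-6/TyJ and 75 in AXB-19/PgnJ. The Otp value of the second BXD-20/TyJ library, the lowest of all mice at 5.92 FPKM, came with the highest choroid plexus sum of all, 2101. With the summed levels of 5 lists of neighbouring tissue as covariates, the same test still passed for 5 of the 6 factors, with strain shares of 0.27 for Nkx2-1, 0.25 for Isl1, 0.20 for Otp, 0.18 for Fezf1 and 0.18 for Nr5a1, and 72% of gene loci passed. The part of the marker levels in the values of single strains was not tested.

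Nr5a1 alone was higher in 2 further strains, BXD-15/TyJ and BXD50. It was 3.49, 4.84 and 2.39 FPKM in BXD-15/TyJ (log2 difference 0.45, SE 0.15, adjusted p = 0.048, limma) and 2.36, 4.59 and 3.87 in BXD50 (0.46, SE 0.15, adjusted p = 0.043). Without the second library these were 0.25 (adjusted p = 0.76) and 0.30 (adjusted p = 0.67). The summed anterior pituitary markers, led by growth hormone (Gh) and prolactin (Prl), were 4477, 14207 and 333 FPKM in the same 3 BXD-15/TyJ mice and 42.3, 12508 and 9862 in those of BXD50, against a median of 25.8 over all mice. The libraries with the higher Nr5a1 in each strain were those with the higher pituitary sum. Of 6 measured pituitary markers, each was at 0 in at least 1 mouse, and their part in the Nr5a1 values was not tested.

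**Figure D3:**
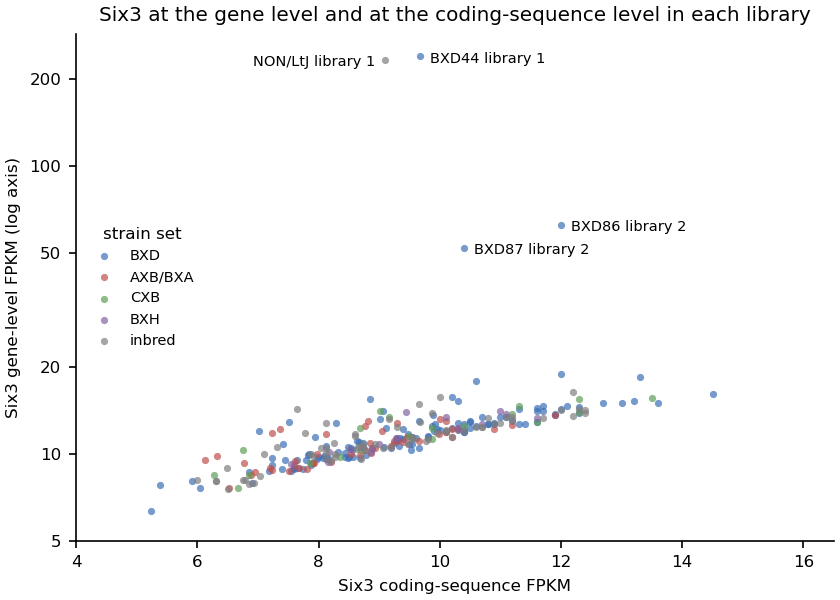
Six3 in each library, at the coding-sequence level in FPKM on the horizontal axis and at the gene level in FPKM on a log vertical axis, coloured by strain set. In 277 mice the 2 levels moved together (r = 0.86), and 4 named libraries had 52 to 240 FPKM at the gene level with 9.1 to 12 at the coding-sequence level.

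Six3 stood apart in BXD44 and NON/LtJ through 1 library in each. BXD44 had 240, 9.63 and 12.2 FPKM and NON/LtJ had 234, 12.4 and 12.4, with log2 differences of 1.35 and 1.45 (SE 0.26, adjusted p = 6.8e-05 and 7.5e-06, limma). The second library of BXD86, at 62.3 FPKM, and the second of BXD87, at 52, were also high, and the remaining 277 mice lay between 6.35 and 19. The coding sequence of Six3 in the 4 high libraries was 9.67, 9.1, 12 and 10.4 FPKM, inside the range over all mice (5.24 to 14.5), and the coding sequence is the sum of both listed transcripts. The excess of up to 230 FPKM over the coding sequence, against a median excess of 1.88 over all mice, was in no listed transcript. At the coding-sequence level BXD44 differed from the mean of strains by -0.02 (adjusted p = 0.97) and NON/LtJ by 0.13 (adjusted p = 0.79). In the first library of NON/LtJ the cortex and hippocampus sum was 74 FPKM against 21.7 and 27.8 in its other libraries, and in that of BXD44 it was 28.9 against 38.9 and 35.9. At the coding-sequence level the highest mean FPKM of Six3 was in BXD-24/TyJ, with 14.5, 11.3 and 11.6 FPKM (0.40, adjusted p = 0.03, limma). CXB-7/ByJ, with 11.6, 13.5 and 12.3 FPKM, had a log2 difference of 0.41 that did not pass (adjusted p = 0.19, limma).

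The factors moved together across strains. Over 99 strain means of log2(FPKM + 1), all 15 pairs had a positive Pearson r and 13 passed (2-sided permutation test with 100000 resamples, Benjamini-Hochberg adjusted over 15 pairs). The highest were Nkx2-1 with Otp (r = 0.78, Spearman rho = 0.72), Otp with Fezf1 (0.77, rho = 0.70) and Nkx2-1 with Fezf1 (0.76, rho = 0.70), the trio whose upstream sequences are shown above. Each had p = 1e-05, the smallest that the permutations can give, and an adjusted p of 2e-05. As a background, 1.1% of 14078 other gene loci reached an r of 0.5 with Nkx2-1, 1.17% with Otp and 0.824% with Fezf1. The smallest r that passed was lower, 0.23 for Six3 with Nkx2-1 and with Fezf1. The share of other loci at that r was not computed, so the count of 13 has no matched background. The median absolute r with all other loci was 0.08 for Six3 and 0.13 for Nkx2-1, Otp and Fezf1. Strains of a set are related, and the permutation treats them as exchangeable.

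Nr5a1 was correlated with Otp (r = 0.55, rho = 0.53), with Fezf1, its partner in the ventromedial nucleus (0.53, rho = 0.51), and with Nkx2-1 (0.50, rho = 0.52), each with permutation p = 1e-05 and adjusted p = 2e-05. Fewer loci reached 0.5 with Nr5a1 than with the trio, 0.107%. Isl1 was correlated with Nkx2-1 (0.56, rho = 0.45), Otp (0.51, rho = 0.45) and Fezf1 (0.49, rho = 0.40) at the same permutation p, and less with Nr5a1 (0.32, rho = 0.30, permutation p = 0.0016, adjusted 0.0025), and 0.391% of loci reached 0.5 with it. Six3 had the lowest values, from 0.08 with Nr5a1 to 0.30 with Isl1, and no locus reached 0.5 with it (0%). Its pairs with Nr5a1 (permutation p = 0.4, adjusted 0.4) and Otp (0.092, adjusted 0.099) did not pass. At the coding-sequence level, where the 4 high libraries were ordinary, Six3 had r = 0.35 with Isl1, 0.33 with Nkx2-1 and 0.26 with Fezf1.

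**Figure D4:**
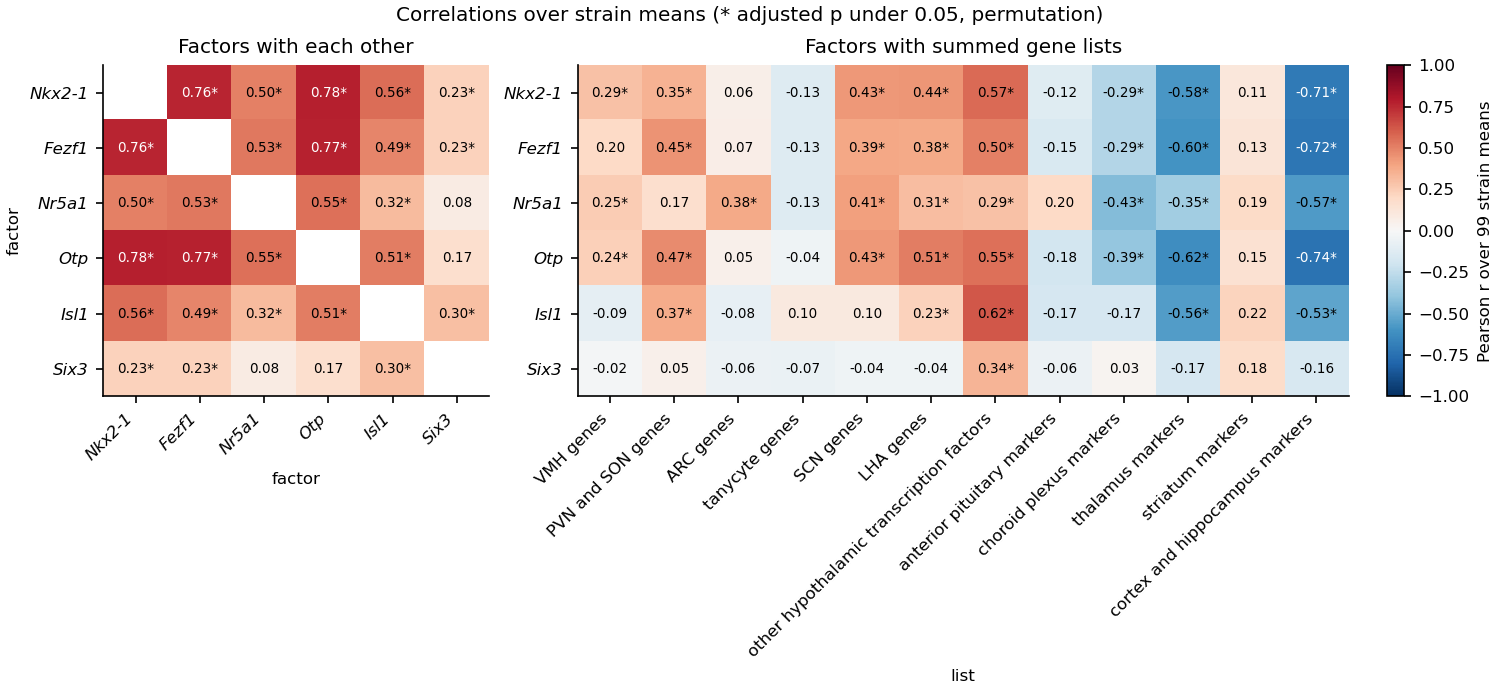
Pearson r over 99 strain means between the 6 factors (left) and of each factor (vertical axis) with the summed level of 12 gene lists (right), with stars at adjusted p under 0.05 by permutation. VMH, PVN, SON, ARC, SCN and LHA are the ventromedial, paraventricular, supraoptic, arcuate and suprachiasmatic nuclei and the lateral hypothalamic area. The trio Nkx2-1, Fezf1 and Otp shared the highest values (0.76 to 0.78), and the cortex and hippocampus column held the lowest (-0.74 for Otp).

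The trio was then read in other views of the data. With the 2 most extreme strains for the first gene of each pair left out, its r values were 0.75 for Nkx2-1 with Otp, 0.74 for Nkx2-1 with Fezf1 and 0.73 for Otp with Fezf1. Within BXD they were 0.77, 0.76 and 0.82 (43 strains), within AXB/BXA 0.86, 0.77 and 0.82 (18 strains), and within the inbred strains 0.72, 0.62 and 0.60 (25 strains), and each passed there, although Nr5a1 with Fezf1 (0.67) exceeded 2 of the 3 in the inbred strains. Among coding sequences the trio was lower, at 0.39, 0.50 and 0.32, and passed, with Otp and Fezf1 below Six3 and Isl1 (0.35), Nkx2-1 and Isl1 (0.34) and Nkx2-1 and Six3 (0.33). Correlations were not computed within CXB and BXH, with 7 and 6 strains. Among mice of the same strain, as deviations of 278 mice from their strain mean, they were 0.71, 0.64 and 0.77, so the covariation was not limited to strain differences. After regression of each factor on the 5 lists of neighbouring tissue, r was 0.55, 0.50 and 0.51 (permutation test, adjusted p = 5e-05 for each). Of all 15 pairs, 7 passed after that regression, 13 within BXD, 7 within AXB/BXA and 5 within the inbred strains. No share over other loci was computed for these counts. Isl1 with Fezf1, at 0.49 over all strains, was -0.02 within AXB/BXA and 0.64 within BXD.

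Each factor was also set against 12 lists of genes by their summed FPKM, and 37 of 72 correlations passed (adjusted over 72). The smallest that passed had an absolute r of 0.23, which 19% of the correlations of all gene loci with these lists reached. With coding sequences 26 of 60 passed. The list of 48 other hypothalamic transcription factors, 36 of them measured at loci with a single name and led by Arnt2, Sox2, Nr2f2 and Meis2, was correlated with all 6 (r = 0.62 with Isl1, 0.57 with Nkx2-1, 0.55 with Otp, 0.50 with Fezf1, 0.34 with Six3 and 0.29 with Nr5a1). Of these 36 genes 32 differed between strains, where 74.9% of all gene loci did. Their median strain share was 0.21, against 0.22 over all gene loci. The paraventricular and supraoptic genes, led by Avp (vasopressin), Sst, Arnt2 and Trh, had their highest r with Otp (0.47), followed by Fezf1 (0.45), Isl1 (0.37) and Nkx2-1 (0.35), and the lateral hypothalamic genes Pmch (melanin concentrating hormone) and Hcrt (orexin) likewise with Otp (0.51). The r of Otp was not tested against those of the other factors. With the coding sequences these values were lower, and the paraventricular and supraoptic list no longer passed with Otp (0.18, permutation test, adjusted p = 0.15), Fezf1 (0.14, adjusted p = 0.28) or Isl1 (0.21, adjusted p = 0.078), nor the lateral hypothalamic list with Otp (0.08, adjusted p = 0.54). The suprachiasmatic genes, led by Rorb, Vip, Lhx1 and Six6, reached 0.43 with both Nkx2-1 and Otp, 0.41 with Nr5a1 and 0.39 with Fezf1.

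The genes of the ventromedial nucleus, led by Slc17a6, Tac1, Adcyap1 and Gda, were correlated with Nkx2-1 (r = 0.29), Nr5a1 (0.25) and Otp (0.24) but did not pass with Fezf1 (0.20, permutation p = 0.05, adjusted 0.089). Over deviations of mice within strains the values were 0.07 for Nkx2-1 and 0.05 for Nr5a1, which did not pass, and 0.25 for Fezf1, which did (permutation test, adjusted p = 0.0012). The Nr5a1 value also did not pass without the first (adjusted p = 0.13) or the third (0.16) replicate number. Slc17a6 alone averaged 93.4 FPKM, where the summed ventromedial list had a median of 193, so the sum leans on that gene. The arcuate genes, led by Pomc, Cartpt, Dlk1 and Tac2, passed by Pearson r only with Nr5a1 (0.38, adjusted p = 0.0006, permutation), and by Spearman also with Otp (rho = 0.26, adjusted p = 0.019) and Nkx2-1 (rho = 0.23, adjusted p = 0.043). They did not pass with Isl1 (-0.08, permutation p = 0.42, adjusted 0.5), the factor known in that nucleus. The sum of that list reached 7101 FPKM in 1 mouse, of which Pomc, a gene also made in the pituitary, can give up to 6851. The tanycyte genes, led by Vim, Lhx2, Gpr50 and Dio2, passed with no factor (-0.13 to 0.10).

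The cortex and hippocampus list and the thalamus list gave the opposite sign with all 6 factors. The cortex and hippocampus sum had r = -0.74 with Otp, -0.72 with Fezf1, -0.71 with Nkx2-1, -0.57 with Nr5a1 and -0.53 with Isl1 (permutation p = 1e-05, adjusted 4e-05 for each), and -0.16 with Six3 (permutation p = 0.11, adjusted 0.17). The Six3 value depended on the level and the measure, with a Spearman rho of -0.26 (permutation test, adjusted p = 0.018), r = -0.34 without the 2 most extreme strains (adjusted p = 0.0029) and r = -0.39 at the coding-sequence level (adjusted p = 0.0005), all of which passed. Only 1.26% of gene loci had an r of -0.5 or less with that sum. The thalamus sum had r from -0.62 with Otp to -0.35 with Nr5a1, and -0.17 with Six3 (-0.40 for its coding sequence, permutation test, adjusted p = 0.0003), and 1.02% of loci reached -0.5. The choroid plexus sum, led by Ttr, passed with Nr5a1 (-0.43), Otp (-0.39), Nkx2-1 and Fezf1 (-0.29 each). The anterior pituitary sum had r from -0.18 to 0.20 and passed with none by Pearson r over strain means, and by Spearman with Fezf1 (rho = -0.23, permutation test, adjusted p = 0.038). The striatum sum was positive with all 6 factors (0.11 to 0.22) and passed with none by Pearson r, but it passed with the Six3 coding sequence (0.37, permutation test, adjusted p = 0.0006), with Six3 without the 2 most extreme strains (0.28, adjusted p = 0.013) and by Spearman with Six3 (rho = 0.25, adjusted p = 0.021) and Nr5a1 (rho = 0.24, adjusted p = 0.032). Over deviations of mice from their strain mean, Nr5a1 had r = 0.29 with the pituitary sum (adjusted p = 0.0002, permutation) and Nkx2-1 0.04. Over the same deviations the 5 factors other than Six3 had r from -0.61 (Otp) to -0.38 (Isl1) with the cortex and hippocampus sum. With the thalamus sum they had -0.55 (Otp) to -0.39 (Isl1), at adjusted p = 3e-05 for each (permutation). Six3 passed with neither (0.03 and -0.06). Within BXD the same 5 factors had r from -0.86 (Otp) to -0.62 (Nr5a1) with the cortex and hippocampus sum, and each passed. Within AXB/BXA strains only 2 of 72 correlations passed, Nkx2-1 and Otp with the cortex and hippocampus sum (-0.85 and -0.76), and within the inbred strains 0 of 72 did (17 had an unadjusted permutation p under 0.05), with r from -0.58 to 0.08 for that sum.

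**Figure D5:**
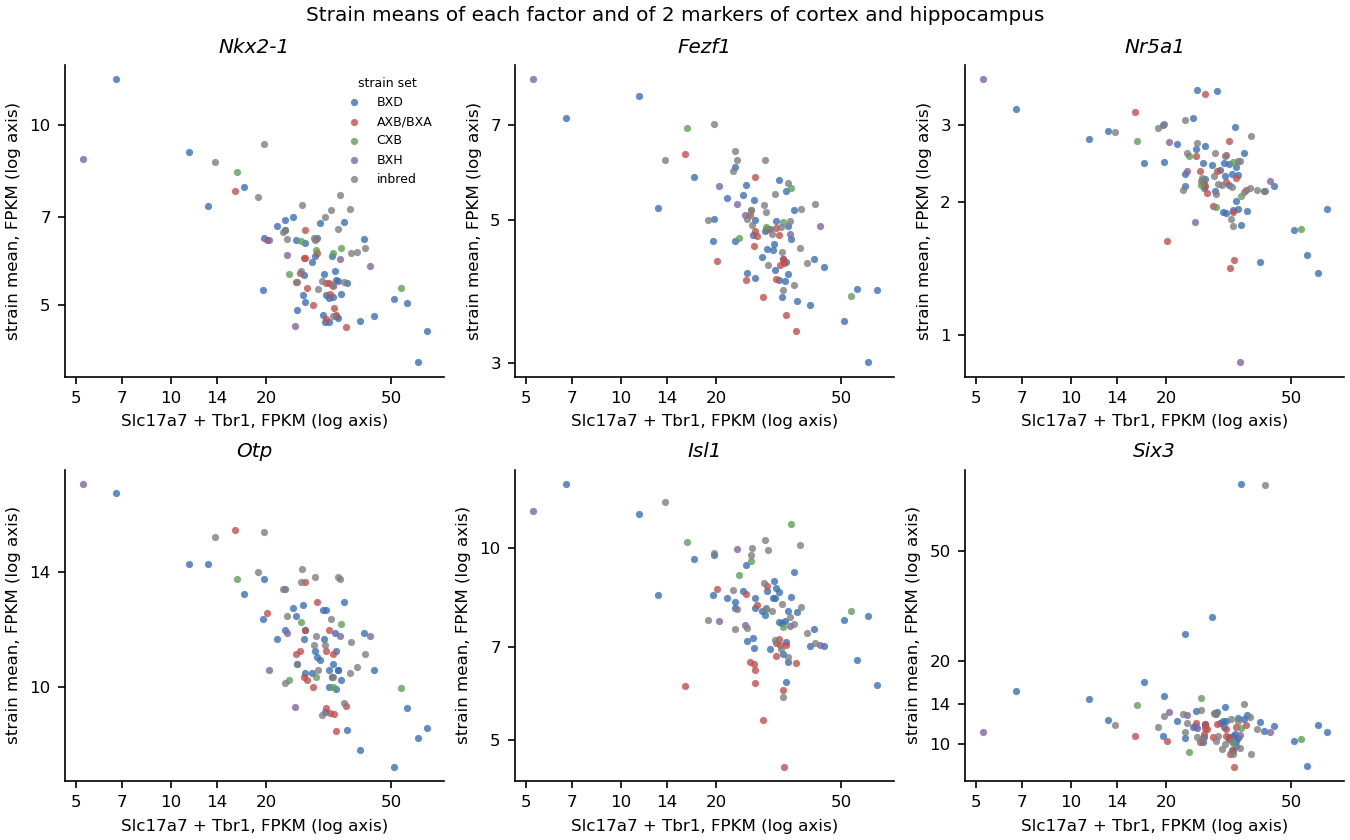
Strain means of each factor in FPKM (vertical, log axis) against the summed FPKM of Slc17a7 and Tbr1 (horizontal, log axis) for 99 strains, coloured by strain set. The marker sum ran from 5.24 FPKM in BXHB2 to 64.6 in BXD-9/TyJ, and the 5 factors other than Six3 were lower where it was higher (r = -0.53 to -0.74). Gene-level Six3, with its 4 high libraries, had r = -0.16 and its coding sequence -0.39.

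The genes most like each factor over strain means came from among the factors, from the lists and from outside both. Lhx5 is in the list of other hypothalamic transcription factors and Dlk1 in that of arcuate genes. For Nkx2-1 they were Otp, Fezf1 and the LIM homeodomain gene Lhx5 (r = 0.73), and for Otp they were Nkx2-1, Fezf1 and the imprinted gene Magel2 (0.74). Those of Fezf1 were Otp, Nkx2-1 and Prkacb (0.71), which encodes a catalytic subunit of protein kinase A. For Nr5a1 they were the imprinted gene Dlk1 (0.60, and 0.60 within strains), Cngb1 (0.55) and Otp (0.55). Those of Isl1 were Hap1 (0.64), Gad2 (0.61), which makes GABA, and Pnmal2 (0.61). The closest to Six3 reached only 0.40 (Elmod1), 0.38 (Fam76b) and 0.37 (Macf1), and within strains these were 0.08, -0.03 and -0.10. Likeness was read as Pearson r over 99 strain means, among loci with a single gene name and a mean of at least 1 FPKM.

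Within 2 Mb of each factor, the locus with the largest absolute r passed 0.5 for Nkx2-1 and Otp. For Nkx2-1 an unnamed locus 15628 bases downstream on the same strand (chr12:56500018-56516330, mean 4.12 FPKM) had r = 0.77. This locus lies within the span of the noncoding gene Sfta3-ps in GENCODE M21 and itself differed between strains (adjusted p = 2.4e-19, limma). For Otp the largest was Aggf1 (r = -0.54), and for Isl1 it was Parp8 (0.41). For Fezf1 it was Kcnd2 (-0.32), for Nr5a1 Lhx2 (-0.31) and for Six3 the overlapping antisense gene Six3os1 (0.27). The median absolute r was 0.20 over the 20 loci near Nkx2-1, against 0.13 over all loci. These were picked as the largest of 7 to 21 loci each and carry no test.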

How the data were processed

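The authors sequenced hypothalamic RNA of 282 male mice, all on the high fat diet, as unstranded, paired-end TruSeq libraries. According to the study's methods and the submitters' processing notes, reads were mapped to mm10 with STAR 2.3.1, assembled per strain with Cufflinks 2.2.0, merged with GENCODE M2 and quantified per mouse with Cuffnorm 2.2.1. The deposited values are FPKM scaled between libraries by the authors, for genes, transcripts, start sites and coding sequences. FPKM carry no counts, so depth per value is unknown and no counting interval was computed. Gene-level FPKM summed to 322047 to 792801 per library (median 337533), the highest being library 2 of BXD-12/TyJ.

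Each mouse was placed in the strain of its label, and libraries of a strain were numbered in order of deposit. The mouse labelled with 2 different strains entered no strain test. Values were tested as log2(FPKM + 1) with limma 3.58.1 in R 4.3.3, with p-values adjusted by Benjamini-Hochberg over all features of a level at a threshold of 0.05. Contrasts with founders and with the mean of strains came from the fit over all strains, which assumes that a strain with a single mouse varies like the rest. Correlations used strain means and 100000 permutations. The limma F test and the DBA/2J contrast were checked on simulated data, in which most loci had no difference, unlike here. The correlation tests were not checked in that way. All members were named, with up to 4 genes of each list by mean FPKM, the 3 loci most like each factor and the locus within 2 Mb with the largest absolute r. Neighbouring tissue was followed with 5 marker lists. Sim1 and Rax were not analysed here. The factors, the lists and the promoters shown were all chosen with earlier results of these data known. Promoter sequences are those of RefSeq on GRCm38.p6, and overlaps are from GENCODE M21. Correlations were run in Python 3.11.15 (numpy 2.4.6). Alternatives were other pseudocounts, a filter at a mean of 1 FPKM, quantile normalization, covariates, the Kruskal-Wallis test, single strain sets, residuals and leaving out replicates. Coding-sequence values, removal of library 2 of BXD-12/TyJ, removal of the 2 farthest strains and separate counting of the 2 nearly equal libraries were added after seeing the data.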

Additional observations from a re-analysis of the deposited data

How the results depend on the processing

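The count of 5 factors that differed between strains at the gene level was the same under both other pseudocounts, a mean of at least 1 FPKM, quantile normalization, read covariates, tissue lists as covariates and either placement of the mouse with 2 strain labels, and was 6 with the Kruskal-Wallis test. It was 3 at the coding-sequence level. The 5 differing transcripts became 3 with a pseudocount of 0.1 (43.1% of all transcripts passed), 2 with 0.01 (40.7%), 2 with tissue lists as covariates (44.1%) and 3 with the Kruskal-Wallis test (38.2%), against 45.9% of all transcripts before. The 1 founder contrast became 4 in a fit of the 5 founders alone and 0 at the coding-sequence level by limma (3 of 20 had an unadjusted p under 0.05), and the 30 strain values became 7 there. Pairs that passed went from 13 to 7 within AXB/BXA, 5 within the inbred strains and 7 after regression on the tissue lists, and correlations with lists from 37 to 2 within AXB/BXA and 0 within the inbred strains, where there are fewer strains.

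With each replicate number left out in turn, the counts were 1 to 5 genes, 0 to 2 transcripts, 0 to 1 founder contrasts, 14 to 30 strain values, 10 to 14 pairs, 34 to 43 correlations with lists and 1 to 7 of the tests within sets (0 to 5 in BXD, 0 to 1 in AXB/BXA, 0 to 0 in CXB, 0 to 2 in BXH and 0 to 2 in the inbred strains). In these repeats 45.6% to 61.4% of all gene loci and 24.2% to 33% of all transcripts passed, against 74.9% and 45.9% with all mice. Leaving out the second number gave the lowest count of genes, with fewer mice in every strain but the 2 that have a single mouse.

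Directions turned for Six3 in BXD44 (-0.07 to 2.14 over the 3 replicate numbers left out, the low value without replicate 1, and -0.02 at the coding-sequence level) and for Isl1 in BXD-24/TyJ (-0.20 at the coding-sequence level). Within AXB/BXA they turned for Six3 and Fezf1 (r = -0.01), Isl1 and Fezf1 (-0.02), Nr5a1 and VMH genes (-0.06), Isl1 and LHA genes (-0.41) and Fezf1 and choroid plexus markers (0.03). Six3 and Fezf1 was -0.02 over deviations of mice, and Six3 and Isl1 -0.02 within the inbred strains. The cause of these changes was not tested. Counting the 2 nearly equal CXB-6/ByJ libraries separately, or leaving out library 2 of BXD-12/TyJ where that was run, moved no count by over 1.5 times. No paired analysis was possible because replicate numbers were given only in order of deposit. Precision is limited by at most 3 mice per strain and by FPKM without counts.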

Other observations

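In library 2 of BXD-12/TyJ, whose gene-level FPKM summed to 792801 against a median of 337533, the factors were 6.31 FPKM for Nkx2-1, 4.91 for Nr5a1, 14.9 for Otp, 12 for Six3, 9.91 for Isl1 and 5.23 for Fezf1. The mouse whose labels name both AXB-6/PgnJ and AXB-8/PgnJ had 5.91 FPKM of Nkx2-1, 1.85 of Nr5a1, 12.2 of Otp, 9.56 of Six3, 6.79 of Isl1 and 5.36 of Fezf1.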
